A study of Saccharomyces cerevisiae with 112 samples.

Results

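The transcriptome of wild-type budding yeast was compared between 5 and 30 min after starved cells were given fresh medium. The series holds 2 RNA-seq libraries for each of 56 combinations of strain and time, and the comparison used 8 of them, namely the 4 libraries of the wild types wt1 and wt2 at 30 min and their 4 libraries at 5 min, chosen by strain and time as labelled. wt1 is a MATa S288C strain, NKI12318, with the alleles his3d200, leu2d0, lys2d0 and met15d0, together with trp1d63 and ura3d0, a bar1::HisG disruption, HIS3, and the Cre recombinase construct Pgpd_CRE_EBD78. wt2, JOY1, is a MATa strain of S288C background with BY4741 as parent and the genotype ura3D leu2D his3D met15D bar1D:HIS5. Both were grown in YPD for 72 h at 30 °C to saturation before release, and each had 2 libraries per time. The libraries of the same strains at starvation (4) served to tell late from early changes, and 20 libraries of 5 other glucose-grown strains of the series (deletions of SIR2, SIR3 and SIR4, and the tagged strains Sir3_3xT7 and Sir3_3xHA) gave the same contrast in separate libraries. Whether the replicates were grown as separate cultures is not in the labels; the p-values rest on the spread between libraries, part or all of which may be technical.

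Saturated yeast cells have used up the glucose and then the ethanol of their medium, and rest in a stress-resistant state with little transcription and little ribosome synthesis. When glucose returns, protein kinase A and TORC1 signalling are known to switch on ribosome production and to switch off respiration, gluconeogenesis and stress protection. Entry into the cell cycle follows at Start, the commitment point in G1, where the transcription factors SBF and MBF turn on G1 cyclin and DNA synthesis genes.

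Levels are given as coverage of a coding sequence scaled by an S. pombe RNA spike-in, which was mixed in per mass of total RNA, so that a level describes mRNA relative to total RNA. They are per base and can be compared between genes. 4 levels in a row are those of wt1 replicates 1 and 2 and then wt2 replicates 1 and 2. Changes are log2 differences ± SE of log2(level + 0.03) from a limma fit, and a gene is said to rise or fall where the Benjamini-Hochberg adjusted p was under 0.05 and the change at least 1. The median gene had 18 to 30 reads in the replicate 1 libraries and 73 to 77 reads in those of replicate 2. Per library, 5592 to 5861 genes were detected. LEU2, URA3 and MET17 were listed at 0 in all 8 libraries and LYS2 in the 4 of wt1, as the genotypes state. Other genes labelled as deleted or disrupted had coverage above 0, and the allele names do not state how much of each gene remains. BAR1, labelled as disrupted in wt1, stood at 0.519 to 3.92 there and at 0 in wt2, TRP1 stood at 0.289 to 0.828 in wt1, labelled trp1d63, and HIS3 at 1.44 to 5.31 in wt2, labelled his3D. Of the a-specific genes the pheromone receptor gene STE2 was present in every library, at 0.348 to 9.27. The alpha-specific genes MF(ALPHA)1, STE3 and SAG1 were also above 0 in every library, at 0.0288 to 1.24.

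From 5 to 30 min most of the transcriptome moved upward. Of 5567 genes tested, 2175 rose (39.1%) and 210 fell (3.77%), and the median change of all genes was 1.08. Lists of genes for making ribosomes, charging tRNAs, DNA replication with dNTP synthesis, and building the cell wall had medians of 1.87 or more. The separate list of MCM helicase and licensing genes had a median of 1.49. Those of gluconeogenesis, respiration and general stress had medians of -1.03 or less. The 4 levels at 30 min all lay above the 4 at 5 min for 1280 genes (23.0%) and all below for 159 (2.86%). Most genes named below were picked from called genes whose levels did not overlap between the times. For them a lack of overlap restates that choice. All 2385 called genes (42.8%) had the same sign in wt1 and in wt2, and in replicate 1 alone and replicate 2 alone. The genes were called on these same libraries, so the shared sign is no separate test of them.

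The upward shift itself was seen in each series of libraries, a series being the libraries of 1 strain with 1 replicate number. The level of the median gene was 0.151, 0.390, 0.221 and 0.529 at 5 min and 0.397, 0.959, 0.431 and 1.06 at 30 min. Every series was higher at 30 min, by 1.24, 1.24, 0.88 and 0.96 on the log2 scale, but the groups overlapped, since replicate 1 of each strain lay lower at both times. The mean difference of 1.08 did not pass an exact permutation test of 4 against 4 libraries (two-sided p = 0.114; the smallest p it allows is 0.0286). Paired within a series, the differences had a mean of 1.08 ± 0.19 (SD, n = 4) and all were positive, and an exact test by sign flips gave a two-sided p of 0.125, the smallest it allows. After centring of every library to a common median, 696 genes (12.5%) were called higher and 822 (14.8%) lower, and these included all 210 that fell on the spike-in scale. A change on the centred scale is relative to the median gene, and the centred value is given for each gene named below whose call differs between the scales. Without wt1 replicate 2 the number of genes called on the spike-in scale was 1141, and without wt2 replicate 2 it was 1549.

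**Figure D1:**
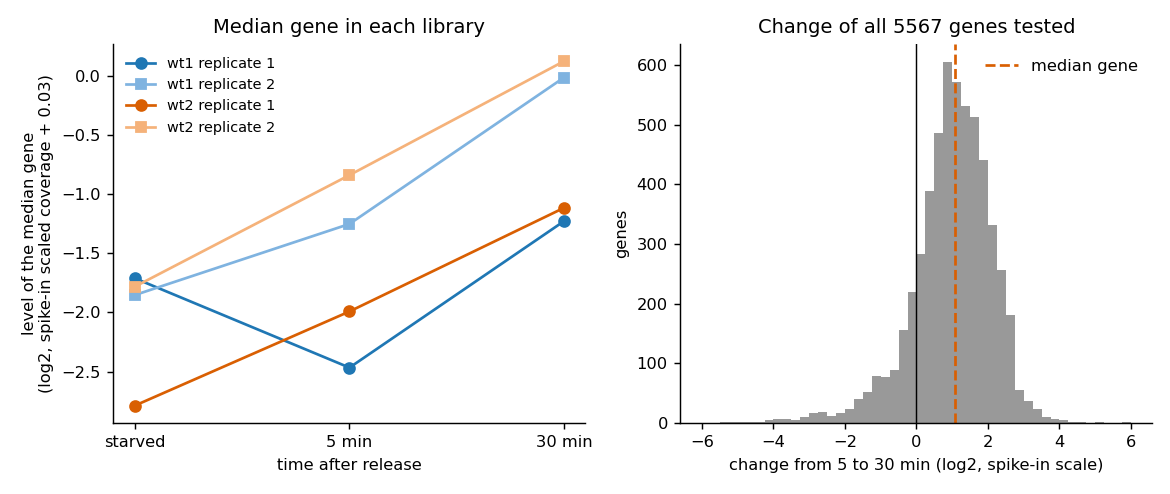
Left, level of the median gene (log2 of spike-in scaled coverage + 0.03) in each wild-type library at starvation, 5 and 30 min, with a line for each strain and replicate. Right, number of genes by log2 change from 5 to 30 min, with the dashed line at the median of 1.08: all 4 lines go up from 5 to 30 min, and most genes lie to the right of 0.

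Genes of Start and S phase were among the largest rises. Of 21 genes of the Start and G1 cyclin list 14 rose and 0 fell (median 1.94 against 1.08 for all genes), and 9 were higher on the centred scale. The same list had 0 rises from starvation to 5 min (median -0.17), beside 10.3% of all genes, and 3 falls when centred. Of 36 DNA replication and dNTP synthesis genes 31 rose (median 1.998), 15 of them when centred, and of 10 cohesin genes 7 rose (median 1.86; 3 centred). By 5 min 3 of the replication genes had already risen, DUT1, SLD5 and PSF1 (8.33%, near the 10.3% of all genes), and 0 of the 10 cohesin genes. Of 14 MCM helicase and licensing genes 9 rose from 5 to 30 min (median 1.49; 2 centred). By 5 min 2 of these 14 had risen (14.3%).

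The G1 cyclin gene CLN2, whose product drives passage through Start with the kinase Cdc28, stood at 0.0558, 0.0809, 0.0288 and 0.0713 at 5 min and at 1.48, 1.999, 1.03 and 0.863 at 30 min. All 4 levels at 30 min lay above those at 5 min, and the rise was 3.91 ± 0.54 (adjusted p = 6.26e-08). PCL1, which encodes a cyclin of the Pho85 kinase, went from 0.0591, 0.0681, 0.0230 and 0.125 to 1.11, 2.30, 1.97 and 1.27, a rise of 4.14 ± 0.53 (adjusted p = 1.26e-08). In wt2 replicate 1 at 5 min the levels of CLN2 (0.0288) and PCL1 (0.0230) were under the pseudocount of 0.03. The sizes of these rises are therefore less certain than their direction. The G1 cyclin gene CLN1 rose as well, by 2.55 ± 0.59 (adjusted p = 0.00054), from levels of only 4 reads in its shallowest library at 5 min. CLN3, the cyclin gene that acts upstream of SBF and MBF, was at or near 0 in all replicate 1 libraries at both times and went from 1.61 to 4.49 in wt1 replicate 2 and from 1.84 to 2.77 in wt2 replicate 2. Its fitted change of 0.66 ± 2.18 (adjusted p = 0.817) did not pass.

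RNR1, the large subunit of ribonucleotide reductase, stood at 0.0492, 0.196, 0.115 and 0.214 at 5 min and at 1.20, 6.60, 3.03 and 3.58 at 30 min, with no overlap and a rise of 4.28 ± 0.69 (adjusted p = 2.23e-06). The sliding clamp gene POL30 (PCNA) went from 0.390, 0.202, 0.394 and 0.249 to 4.90, 4.68, 6.76 and 2.19, all higher, a rise of 3.72 ± 0.49 (adjusted p = 2.76e-08). MCD1, the cleavable subunit of the cohesin ring, was near the detection floor at 5 min (0.0263, 0.0426, 0.0345 and 0.0950, with 4 reads in the shallowest library) and reached 0.551, 1.83, 1.07 and 1.06, a rise of 3.81 ± 0.56 (adjusted p = 3.41e-07). DPB2, a subunit of DNA polymerase epsilon, rose by 3.14 ± 0.54 (adjusted p = 8.17e-06). The helicase gene MCM2 rose by 2.61 ± 0.59 (adjusted p = 0.000423), the largest rise of the licensing list. Later cell cycle genes stood nearer to the median gene: of 20 G2/M genes 8 rose on the spike-in scale and 0 when centred, and of 8 core histone genes 4 and 0.

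Short stretches upstream of 3 of these genes are shown because they hold the letters that SBF and MBF are known to bind. CSI2, which is in none of these lists, is shown as a late gene with a rise among the largest (4.68 ± 0.51, adjusted p = 6.7e-11), and its stretch was picked after its values were seen. They were read from RefSeq's R64 assembly, 5′ to 3′ on the strand of the gene, with the matched letters in capitals on either strand.
POL30 (chr2:425944-425973, minus strand; match from 195 bases before the start codon): ccaaaacgcgaaACGCGTaacttttttttt
MCD1 (chr4:444383-444412, plus strand; 292 bases before): gaggagggACGCGTcgagaaaatcgcgtct
PCL1 (chr14:87621-87650, plus strand; 265 bases before): cgcaaaagcgaCTCGAAAtgtcgggagcca
CSI2 (chr15:312615-312644, minus strand; 266 bases before): gaaatagaagcCACGAAAtgctaagctgaa
POL30 and MCD1 hold ACGCGT, the MBF motif, and PCL1 and CSI2 hold CNCGAAA, the SBF motif. Within 300 bases before the start codon, ACGCGT was found on either strand in 28 of 67 promoters of the Start, replication and cohesin lists (41.8%) and in 3.64% of 5355 promoters of genes tested. For CNCGAAA the shares were 26.9% and 14.7%. No stretch is shown for CLN2 or RNR1, and matches in their promoters are not reported here.

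Ribosome production genes, many of which had risen by 5 min, rose further. Of 54 small subunit processome genes, which process the early pre-rRNA, 52 rose (median 2.25), as did 58 of 61 large subunit assembly genes (median 2.13). Centred on the median gene 31 and 37 were higher and 0 and 0 lower. From starvation to 5 min 36 and 39 of the same genes had risen, against 10.3% of all genes tested. These contrasts share the 5 min libraries.

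NOP7, a large subunit assembly factor, stood at 0.368, 1.63, 0.909 and 2.56 at 5 min and at 5.15, 17.8, 4.73 and 15.9 at 30 min, a rise of 3.02 ± 0.63 (adjusted p = 0.000166) after one of 2.02 ± 0.63 (adjusted p = 0.0228) in the first 5 min. RRP1, which acts in the same pathway, went from 0.538, 0.413, 0.736 and 1.15 to 4.46, 9.69, 4.34 and 7.41, a rise of 3.15 ± 0.47 (adjusted p = 4.69e-07). Both genes had all levels at 30 min above all at 5 min, with the highest in replicate 2 of each strain. KRR1, of the small subunit pathway, rose by 2.79 ± 0.55 (adjusted p = 7.31e-05).

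The stretches that follow hold GATGAG, the PAC motif known from promoters of ribosome assembly genes, in capitals.
NOP7 (chr7:695286-695315, plus strand; last match from 119 bases before the start codon): gcGATGAGATGAGATGAGaaaaaatgaaaa
NOP2 (chr14:510418-510447, plus strand; 110 bases before): gaataagtttaaGATGAGctgagctgcaaa
NSR1 (chr7:807826-807855, minus strand; 187 bases before): ttgcaagggcagCTCATCgcaagaacgaaa
GATGAG lay within 300 bases of the start codon in 105 of 115 promoters of the ribosome assembly lists (91.3%), 9.71% of those of ribosomal protein genes and 18.7% of all. AAATTTT, the core of the RRPE motif, lay in 93.9%, 31.1% and 25.5%. Among the 681 promoters of genes higher on the centred scale, 33.9% held GATGAG and 49.5% held AAATTTT.

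Of 41 small and 62 large subunit ribosomal protein genes tested, 34 and 49 rose (medians 2.43 and 2.36), and 19 and 18 were higher when centred. RPS22B went from 0.991, 1.29, 0.633 and 2.96 to 11.3, 36.6, 8.59 and 27.3, with no overlap, a rise of 3.79 ± 0.53 (adjusted p = 1.03e-07). RPS22B has a near-identical copy, RPS22A, and overlaps the snoRNA gene SNR44 on its own strand, so the split of its reads is uncertain. RPL4A, also 1 of a near-identical pair, ranged from 0.276 to 7.19 at 5 min and from 11.3 to 38.7 at 30 min.

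Aminoacyl-tRNA synthetase genes had the highest median of the 51 lists examined. Of 20 genes 19 rose (median 2.55) and 17 were higher when centred. In the first 5 min 4 had risen (20%, beside 10.3% of all genes), and 7 when centred (beside 11.6%). The tyrosyl-tRNA synthetase gene TYS1 stood at 0.436, 0.464, 0.831 and 1.04 at 5 min and at 6.33, 8.50, 5.42 and 6.86 at 30 min, a rise of 3.31 ± 0.44 (adjusted p = 2.76e-08). VAS1, for the valyl-tRNA synthetase, rose by 3.20 ± 0.63 (adjusted p = 6.68e-05). Of 36 translation factor genes 32 rose (median 2.19), among them TEF4, an elongation factor subunit, from 0.958, 1.81, 0.914 and 3.22 to 11.1, 25.7, 9.20 and 17.9. PRT1, a subunit of initiation factor eIF3, rose by 3.71 ± 0.58 (adjusted p = 1.23e-06) and had not been called at 5 min (0.55 ± 0.58, adjusted p = 0.762). Genes of RNA polymerase I (12 of 16), RNA polymerase III (14 of 19) and the CCT chaperonin with its partners (17 of 19) rose and none of these lists had a fall.

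**Figure D2:**
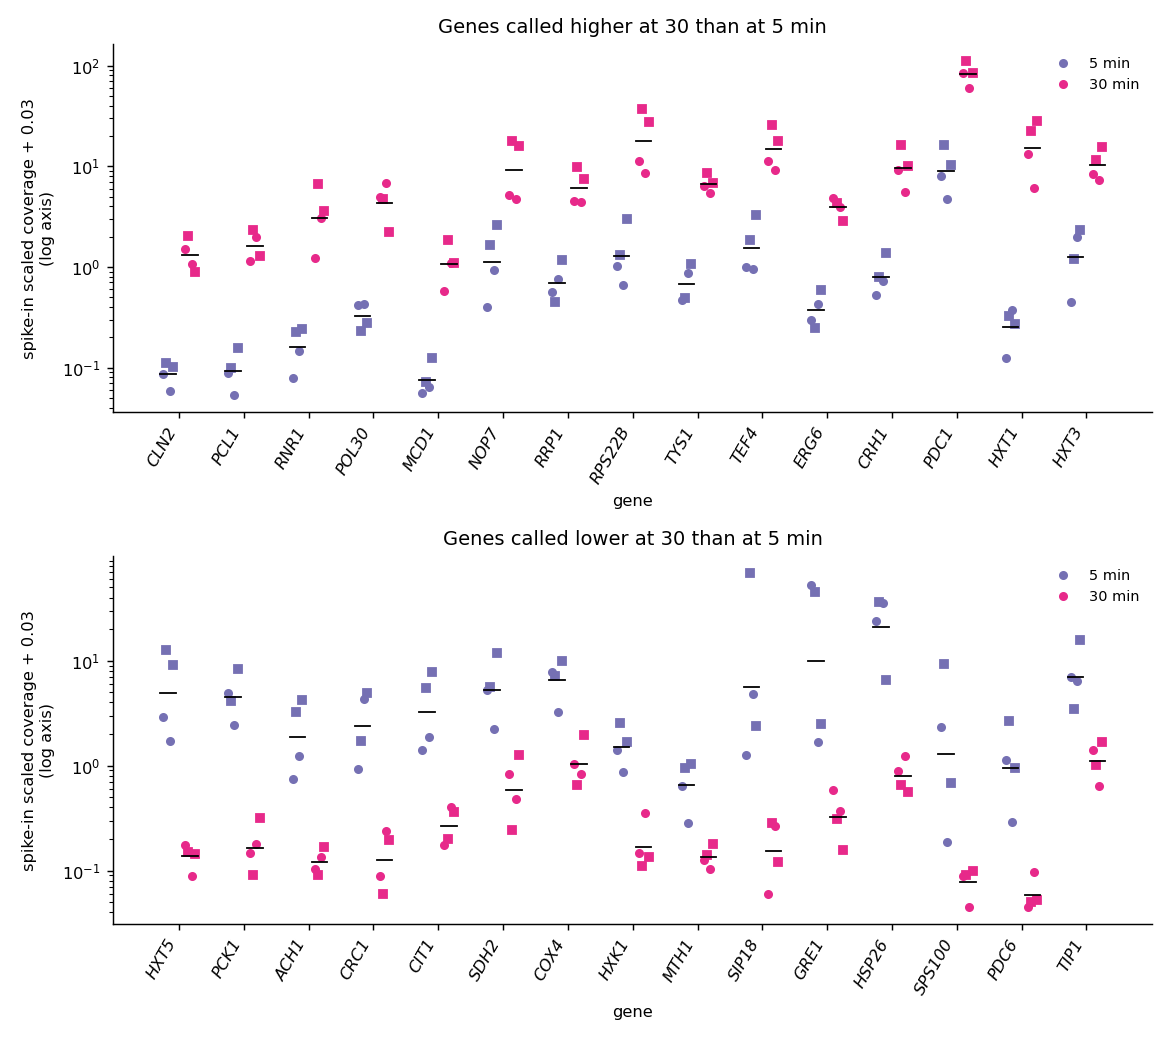
Spike-in scaled coverage + 0.03 (log axis) of 15 genes that rose (top) and 15 that fell (bottom), in each wild-type library at 5 and 30 min. Circles are replicate 1, squares replicate 2 and lines the mean of the log values: the genes were picked from those whose times do not overlap, and the distance between the times is what the plot shows, from 0.345 or less to 6.09 or more for HXT1.

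Hexose transporter genes moved in both directions between 5 and 30 min. HXT1, the low-affinity transporter gene that high glucose induces, was the largest rise of all genes tested: it stood at 0.0952, 0.292, 0.345 and 0.244 at 5 min and at 13.2, 22.5, 6.09 and 28.3 at 30 min, a rise of 5.90 ± 0.55 (adjusted p = 1.01e-12). The low-affinity transporter gene HXT3 went from 0.420, 1.18, 1.96 and 2.31 to 8.35, 11.5, 7.32 and 15.6, a rise of 3.03 ± 0.56 (adjusted p = 3.07e-05). Both had already risen from starvation to 5 min, by 2.74 ± 0.55 (adjusted p = 0.000184) for HXT1 and 3.13 ± 0.56 (adjusted p = 2.4e-05) for HXT3.

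HXT5, the transporter gene of non-growing cells, moved the other way. It stood at 2.89, 12.6, 1.67 and 9.12 at 5 min and at 0.147, 0.121, 0.0595 and 0.115 at 30 min, with no overlap, and fell by 5.17 ± 0.49 (adjusted p = 1.01e-12), after no call in the first 5 min (-0.38 ± 0.49, adjusted p = 0.846). HXT7, a high-affinity transporter gene, is near-identical to its neighbour HXT6, so the split of reads between these genes is uncertain. HXT7 stood at 0, 1.37, 5.64 and 1.01 in starved cells and had risen by 3.51 ± 1.03 (adjusted p = 0.0133) at 5 min. It then went from 8.23, 7.49, 7.10 and 9.47 to 0.786, 0.303, 1.03 and 0.190, and fell by 4.01 ± 1.03 (adjusted p = 0.00161). HXT7 is thus among the early genes that fell again, described below. HXT6, with the same uncertainty, was not called on the spike-in scale (-1.61 ± 1.00, adjusted p = 0.18). It was called lower with the series as a block (adjusted p = 0.0187) and when centred (-2.69, adjusted p = 0.016). HXT2, another high-affinity gene, had 0.833, 2.13, 1.17 and 18.7 at 5 min and 0.184, 1.14, 0.803 and 3.62 at 30 min, overlapping groups with a change of -1.45 ± 0.73 (adjusted p = 0.096), which passed with the block (adjusted p = 0.0457). When centred, HXT2 was called lower, at -2.52 (adjusted p = 0.000129). HXT4 had a change of 0.14 ± 0.56 (adjusted p = 0.847).

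Genes that set the response to glucose were mixed, with 6 rises and 2 falls of 25 (median 1.000). When centred 1 was higher and 7 were lower. HXK1, a hexokinase gene that glucose represses, went from 1.39, 2.54, 0.834 and 1.66 to 0.117, 0.0808, 0.327 and 0.104, and fell by 3.18 ± 0.54 (adjusted p = 7.35e-06). MTH1, whose product keeps HXT genes repressed without glucose, fell by 2.27 ± 0.48 (adjusted p = 0.000172). Of the glucose repressor genes, MIG3 rose by 1.72 ± 0.48 (adjusted p = 0.00365) on the spike-in scale (0.64 and not called when centred). MIG1 changed by -0.42 ± 0.49 (adjusted p = 0.482) on that scale and was called lower when centred, at -1.498 (adjusted p = 0.00226). MIG2 changed by 1.00 ± 0.48 (adjusted p = 0.0845).

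Many glycolysis genes rose while most gluconeogenesis genes fell. Of 19 genes of glycolysis and ethanol production 13 rose and 2 fell (median 1.87; 7 higher and 4 lower when centred). Of 21 gluconeogenesis and glyoxylate genes 0 rose and 18 fell (median -2.86; 20 lower when centred). The pyruvate decarboxylase gene PDC1 went from 7.96, 16.2, 4.71 and 10.2 to 83.4, 111.7, 60.2 and 85.1, a rise of 3.22 ± 0.50 (adjusted p = 1.29e-06). ENO2, an enolase gene with a close copy in ENO1, rose by 3.28 ± 0.59 (adjusted p = 1.74e-05). The 2 members of the glycolysis list that fell included PDC6, a minor pyruvate decarboxylase isozyme gene. It went from 1.11, 2.63, 0.262 and 0.912 to 0.0147, 0.0202, 0.0669 and 0.0230 (-4.04 ± 0.54, adjusted p = 3.46e-08), the last levels resting on as little as 1 read.

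PCK1, for the phosphoenolpyruvate carboxykinase that commits carbon to gluconeogenesis, stood at 4.85, 4.06, 2.39 and 8.34 at 5 min and at 0.117, 0.0606, 0.149 and 0.288 at 30 min. The groups were far apart and PCK1 fell by 4.76 ± 0.46 (adjusted p = 1.12e-12). From starvation to 5 min PCK1 had changed by -0.28 ± 0.46 (adjusted p = 0.891). ACH1, a CoA transferase gene of acetate metabolism, went from 0.709, 3.20, 1.21 and 4.17 to 0.0734, 0.0606, 0.104 and 0.138 and fell by 3.96 ± 0.48 (adjusted p = 2.45e-09), after a change of -1.73 ± 0.48 (adjusted p = 0.00836) by 5 min. CRC1, the mitochondrial carnitine carrier gene, fell by 4.26 ± 0.44 (adjusted p = 2.52e-11).

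In the TCA cycle 8 of 16 genes fell and 1 rose (median -1.26; 13 lower when centred), and of 31 genes of the respiratory chain and ATP synthase 11 fell and 0 rose (median -1.03; 28 lower when centred). CIT1, the mitochondrial citrate synthase gene, stood at 1.37, 5.44, 1.84 and 7.77 at 5 min and at 0.147, 0.172, 0.372 and 0.334 at 30 min, and fell by 3.60 ± 0.58 (adjusted p = 2.38e-06). SDH2, a succinate dehydrogenase subunit gene, fell by 3.17 ± 0.56 (adjusted p = 1.63e-05). The cytochrome c oxidase subunit gene COX4 went from 7.81, 7.16, 3.19 and 9.84 to 0.999, 0.626, 0.803 and 1.94, all lower, and fell by 2.66 ± 0.55 (adjusted p = 0.000129). Genes of the mitochondrial ribosome, 64 tested, had 22 rises on the spike-in scale and 0 when centred, with a median of 1.11 beside 1.08 for all genes.

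Many stress genes fell in the same interval. Of 36 general stress genes 16 fell and 0 rose (median -1.12), and 27 were lower when centred. HSP26, a small heat shock chaperone gene, stood at 23.6, 36.5, 35.5 and 6.49 at 5 min and at 0.866, 0.626, 1.20 and 0.529 at 30 min, with no overlap and fell by 4.73 ± 0.63 (adjusted p = 3.46e-08). SIP18 and GRE1 encode hydrophilins of dry and salt-stressed cells. SIP18 ranged from 1.22 to 68.9 at 5 min and from 0.0294 to 0.252 at 30 min (-5.19 ± 1.16, adjusted p = 0.000357). GRE1 stood at 52.5, 44.95, 1.65 and 2.46 at 5 min, far higher in wt1 than in wt2, and at 0.551, 0.283, 0.342 and 0.127 at 30 min, and fell by 4.96 ± 0.73 (adjusted p = 3.41e-07).

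Of 27 heat shock and chaperone genes 3 fell and 1 rose, with a median of 0.30, below that of all genes (10 lower when centred). HSP30, for a membrane heat shock protein, fell by 3.85 ± 0.67 (adjusted p = 1.02e-05). On the centred scale 14 of 21 trehalose and glycogen genes were lower and 0 higher, beside 14.8% and 12.5% of all genes. Fewer of them passed on the spike-in scale. Of 21 trehalose and glycogen genes 5 fell and 1 rose, among them the glycogen phosphorylase gene GPH1 (-1.73 ± 0.56, adjusted p = 0.0105; adjusted p = 0.0925 without wt1 replicate 2 and 0.0615 without wt2 replicate 1). PGM2, a phosphoglucomutase gene, fell by 1.21 ± 0.49 (adjusted p = 0.0386) and was not called when any of the 4 series was left out (adjusted p from 0.0772 to 0.175).

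Stretches with AGGGG, the stress response element that Msn2 and Msn4 are known to bind, are shown for 3 genes named here that fell and hold the letters (SPS100 is described with the late genes).
SPS100 (chr8:379322-379351, minus strand; 140 bases before the start codon): ttgttgaaaattCCCCTaagacgttactca
ACH1 (chr2:193982-194011, plus strand; 128 bases before): agatgtgttctaCCCCTtcttttgtcttgt
CIT1 (chr14:631178-631207, minus strand; 134 bases before): ttgctagtcttaAGGGGgaaatttgctgtt
AGGGG lay within 300 bases of the start codon in 33 of 57 promoters of the stress and the trehalose and glycogen lists (57.9%), in 39.1% of 797 promoters of genes lower on the centred scale, in 14.5% of 681 of genes higher there and in 22.5% of all. No stretch is shown for HSP26, SIP18 or HXT5, and matches in their promoters are not reported here.

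Biosynthetic genes rose in part. Of 52 genes of amino acid synthesis under Gcn4 28 rose and 0 fell (median 1.42; 11 higher and 3 lower when centred). BAT1, a branched-chain aminotransferase gene, went from 0.361, 1.05, 0.759 and 1.62 to 4.24, 10.1, 4.92 and 13.2, a rise of 3.08 ± 0.54 (adjusted p = 1.37e-05), and the proline synthesis gene PRO1 rose by 3.06 ± 0.57 (adjusted p = 3.17e-05). GCN4 itself changed by 1.04 ± 0.65 (adjusted p = 0.179), overlapping between times, and passed with the series as a block (adjusted p = 0.0200). Of 10 pyrimidine genes 8 rose (median 2.17), among them the CTP synthase gene URA7, which went from 0.745, 1.38, 1.08 and 3.38 to 9.05, 13.2, 4.50 and 11.2.

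Ergosterol synthesis had 16 rises of 26 (median 1.40; 6 when centred). ERG6, the sterol methyltransferase gene, stood at 0.269, 0.217, 0.400 and 0.564 at 5 min and at 4.75, 4.30, 3.89 and 2.80 at 30 min, a rise of 3.39 ± 0.43 (adjusted p = 1.14e-08) after a change of 0.02 ± 0.43 (adjusted p = 0.997) in the first 5 min. Purine and one-carbon genes had 9 rises of 26, with 4 higher and 6 lower when centred. IMD4, an IMP dehydrogenase gene that overlaps the snoRNA gene SNR54 on its own strand, rose by 3.18 ± 0.59 (adjusted p = 3.04e-05). For the phosphate, iron and sulfur lists the medians were 0.82, 0.80 and 0.74, below that of all genes.

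Many cell wall and bud growth genes rose between 5 and 30 min. Of 36 genes 24 rose and 1 fell (median 1.87; 16 and 2 when centred). By 5 min 5 had risen (13.9%, beside 10.3% of all genes), and 6 when centred. CRH1, a cell wall transglycosylase gene, went from 0.492, 0.762, 0.693 and 1.35 to 9.09, 16.2, 5.52 and 10.1, with no overlap, a rise of 3.57 ± 0.53 (adjusted p = 4.82e-07). Its homologue UTR2 rose by 3.83 ± 0.49 (adjusted p = 1.34e-08). GAS3, for a cell wall protein of the GAS family, rose by 3.62 ± 0.53 (adjusted p = 3.41e-07). SLT2, the MAP kinase gene of the cell wall integrity pathway, stood at 0.299, 0.375, 0.359 and 0.635 at 5 min and at 5.83, 5.79, 3.08 and 4.43 at 30 min, a rise of 3.44 ± 0.47 (adjusted p = 7.8e-08), and WSC2, a sensor gene of that pathway, rose by 3.44 ± 0.46 (adjusted p = 3.46e-08). TIP1, for a cell wall mannoprotein, fell by 2.65 ± 0.58 (adjusted p = 0.000301). GAS2, a GAS family member known from sporulation, rose by 4.55 ± 0.53 (adjusted p = 5.96e-10); it lies downstream of FKS1, on the same strand in R64.

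**Figure D3:**
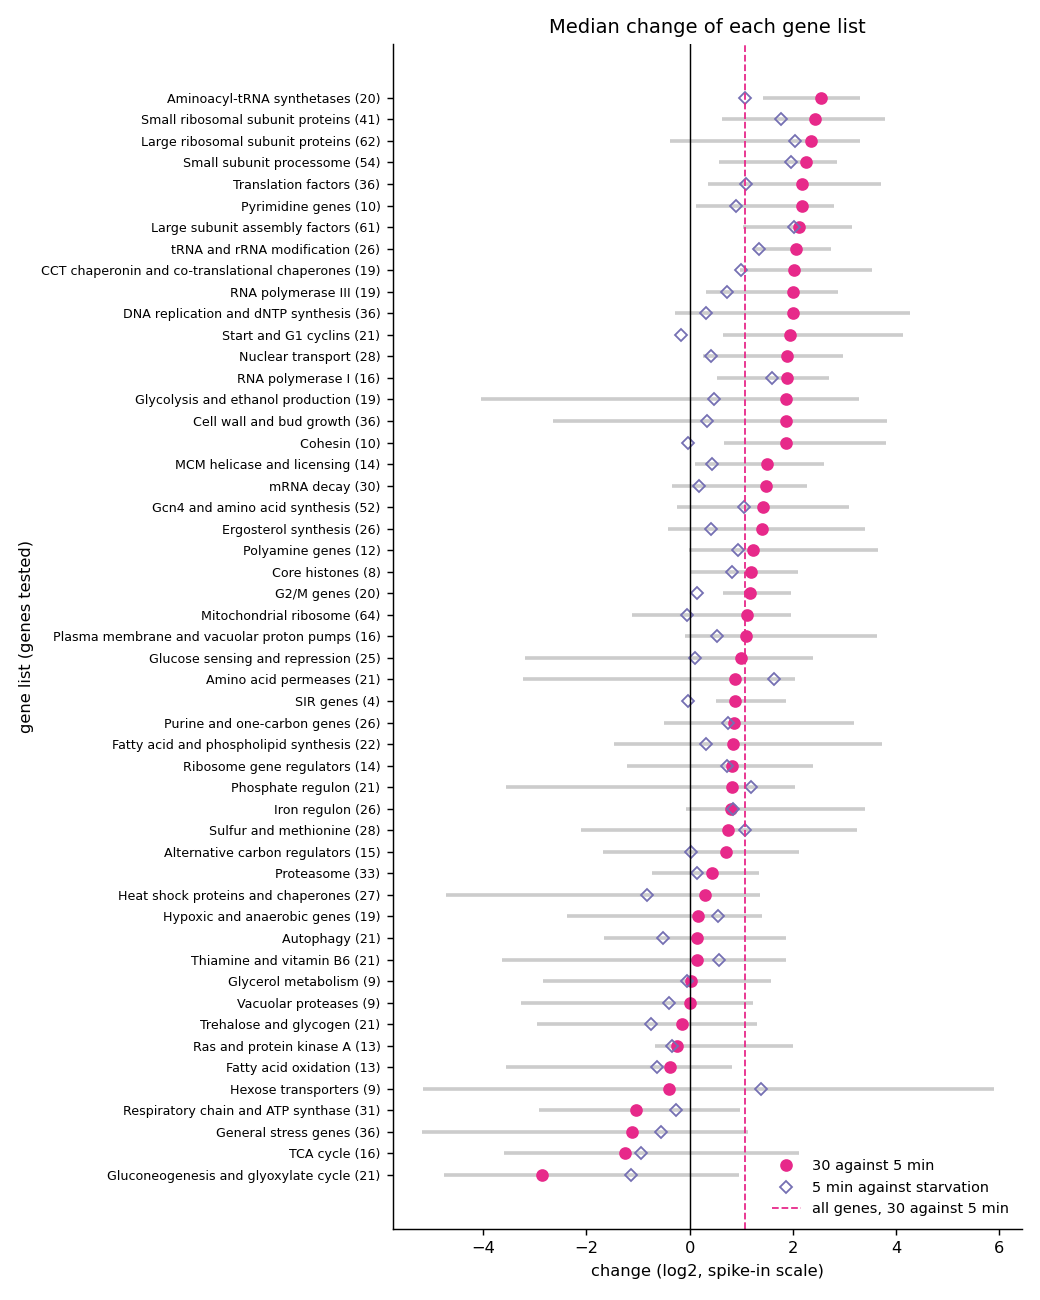
Median log2 change (spike-in scale) of each gene list from 5 to 30 min (filled circles, with a bar from the lowest to the highest gene) and from starvation to 5 min (diamonds), with the number of genes tested and the median of all genes from 5 to 30 min (dashed, 1.08). The 2 contrasts share the 5 min libraries: aminoacyl-tRNA synthetase genes have the highest median and gluconeogenesis genes the lowest.

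Genes that changed only after the immediate response were taken as those whose level had moved by less than 0.5 on the log2 scale from starvation to 5 min, in either direction. The SE of a gene was the same for this step as from 5 to 30 min, with a median of 0.56 over genes. A fitted change under 0.5 therefore does not show that a gene was unmoved at 5 min. In that first step the level of the median gene went from 0.275 to 0.151 in wt1 replicate 1 and rose in the other 3 series. Of 2921 such genes 1012 rose from 5 to 30 min (34.6%, beside 39.1% of all genes) and 64 fell (2.19%, beside 3.77%), so their share was near the background. Among the late rises were POL30, MCD1, GAS2, CSI2, GAS3, SLT2 and WSC2. Among the late falls were HXT5, PCK1, CRC1, GRE1 and SPS100, a spore wall gene. SPS100 stood at 2.28, 9.37, 0.155 and 0.647 at 5 min, higher in wt1 than in wt2, and at 0.0587, 0.0606, 0.0149 and 0.0690 at 30 min, and fell by 4.05 ± 0.62 (adjusted p = 7.77e-07). Without wt1 replicate 1 the late rises numbered 399 and without wt1 replicate 2 they numbered 495, with 591 without wt2 replicate 2. The late falls numbered 22 without wt1 replicate 2, 41 without wt2 replicate 1 and 42 without wt2 replicate 2.

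Early genes already turning back were few on the spike-in scale, and their share was near that of all genes. Of the 572 genes that had risen from starvation to 5 min, 334 rose further to 30 min (58.4%), 218 were not called and 20 fell (3.5%, beside 3.77% of all genes). Because the contrasts share the 5 min libraries, error in those libraries enters them with opposite signs. When early genes were instead taken from the 5 other strains, which share no library with the wild types, 26 of 956 (17.2% of genes tested) fell in the wild types (2.72%). Of the 20, all 4 levels at 30 min lay below all at 5 min for 13, 15 also fell in the 5 other strains, and 6 were still above starvation at 30 min by the test, beside 52.8% of all genes above it and 5.55% below. The number was 42 with the series as a block. When centred, 86 of 645 early rises (11.6% of genes tested) fell, beside 14.8% of all genes called lower on that scale. On the spike-in scale the number was 12 without wt1 replicate 1, 6 without wt1 replicate 2 and 7 without wt2 replicate 2.

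AQY1, an aquaporin gene, stood at 1.30, 1.11, 0.142 and 0.0704 in starved cells, 1.38, 4.98, 1.21 and 1.73 at 5 min and 0, 0.0303, 0.0297 and 0.0230 at 30 min. It fell by 5.34 ± 0.56 (adjusted p = 2.63e-11), the largest fall of all genes tested, and it was the 1 gene of the 20 that ended below starvation by the test. FMP48, a kinase-like gene of mitochondria, rose to 3.94, 13.8, 3.73 and 9.56 at 5 min from 0.334, 0.386, 0.109 and 0.0544 in starved cells and stood at 0.940, 1.93, 0.476 and 0.656 at 30 min, and fell by 2.89 ± 0.56 (adjusted p = 5.39e-05). RCK1, a protein kinase gene linked to oxidative stress, was at or near 0 in starved cells, reached 0.755, 1.62, 0.477 and 0.695 at 5 min and 0.110, 0.182, 0.0595 and 0.173 at 30 min, and fell by 2.45 ± 0.48 (adjusted p = 6.14e-05). All levels of these 3 genes at 30 min lay below those at 5 min.

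PHO89, the sodium-coupled phosphate transporter gene, went from 0.807, 3.25, 1.43 and 26.2 to 0.103, 0.232, 0.178 and 0.736, and fell by 3.55 ± 0.74 (adjusted p = 0.000171). The level at 5 min was highest in wt2 replicate 2. ICY1 fell by 2.76 ± 0.52 (adjusted p = 3.97e-05). HMS1, for a transcription factor of the helix-loop-helix family, fell by 2.44 ± 0.40 (adjusted p = 3.59e-06), with 2 of the 4 levels at 30 min at 0. ANB1, the hypoxic form of translation factor eIF5A, fell by 1.68 ± 0.57 (adjusted p = 0.0157) and was not called when any of the 4 series was left out (adjusted p from 0.0554 to 0.0887). Turning the other way, 2 of 67 genes that had fallen by 5 min rose again (2.99%, beside 39.1% of all genes), POM33 and YNK1. YNK1, a nucleoside diphosphate kinase gene, stood at 0.637, 1.79, 2.82 and 2.63 at 5 min and at 1.95, 7.37, 6.497 and 7.95 at 30 min, overlapping groups with a rise of 1.59 ± 0.56 (adjusted p = 0.0177) that was 0.51 and not called when centred. POM33, a nuclear pore protein gene, went from 2.86, 0.923, 1.53 and 1.14 in starved cells to 0.407, 0.475, 0.638 and 0.416 and then 0.940, 0.893, 1.25 and 1.45, a rise of 1.17 ± 0.43 (adjusted p = 0.0249) on the spike-in scale. Relative to the median gene its change was 0.09 and was not called, and without wt1 replicate 1, wt1 replicate 2 or wt2 replicate 2 its adjusted p was 0.116, 0.0905 and 0.163.

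**Figure D4:**
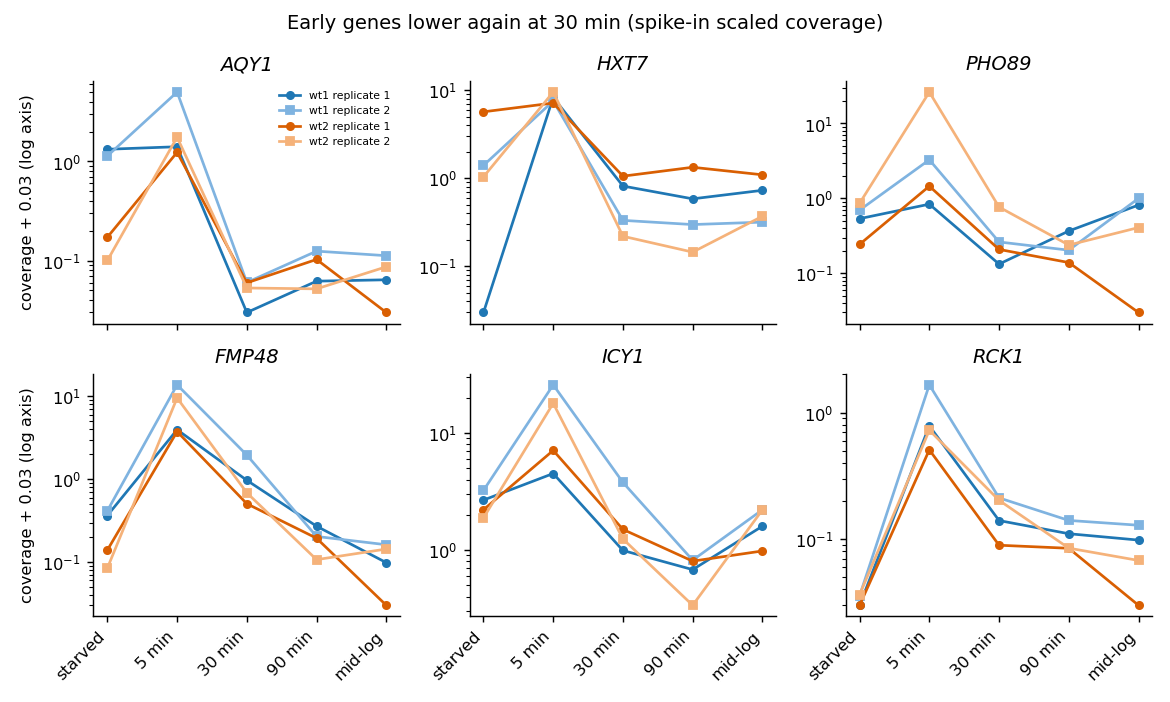
Spike-in scaled coverage + 0.03 (log axis) of 6 early genes in each wild-type series at starvation, 5, 30 and 90 min and in mid-log growth. The genes were picked from those whose 4 levels at 30 min lie below the 4 at 5 min, and AQY1 lies at 0.0303 or less at 30 min.

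No gene passed the test of a difference between the wild types in this step. limma called 0 genes for wt2 against wt1 in the change from 5 to 30 min, with 12 genes (0.216%) at an unadjusted p under 0.05, and 0 genes when centred, with 139 (2.5%). With the series as a block it also called 0, with 79 (1.42%), and with block and centring 0, with 244 (4.38%). The median change of all genes was 1.27 in wt1 and 0.92 in wt2. Across genes, which are not independent replicates, the changes in the 2 strains correlated at 0.88.

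The 5 other strains gave the same direction for each of the 66 named genes called in the wild types. Fewer genes were named than the naming rule allows, so this agreement does not speak for those left out. Of the 20 early genes that fell again in the wild types, 15 were called lower in the other strains and 19 had a change below 0. In the 5 other strains 3397 genes rose from 5 to 30 min (61.0%) and 221 fell (3.97%). Of the 2175 genes that rose in the wild types 2158 rose there and 17 were not called, and of the 210 that fell 173 fell and 37 were not called. HXT1 changed by 5.56 ± 0.35 there, CLN2 by 4.002 ± 0.34, PCK1 by -4.36 ± 0.29 and HXT5 by -4.54 ± 0.31. HSP26 changed by -2.95 ± 0.40, beside -4.73 in the wild types, and HXT7 by -1.61 ± 0.65, beside -4.01. The difference between the wild types and the other strains was not tested.

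**Figure D5:**
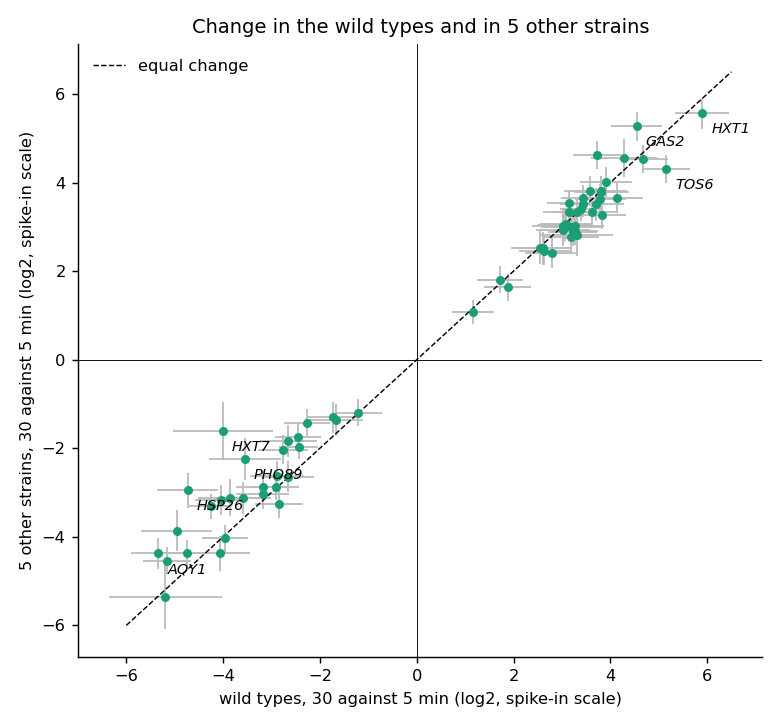
Log2 change from 5 to 30 min (spike-in scale) of 66 named genes called in the wild types (x axis) and in 5 other strains of the series (y axis), with bars of 1 SE and a dashed line of equal change. All 66 genes, a part of those that the naming rule allows, were called in the same direction in both.

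Several groups stood near or below the median gene. Of 33 proteasome genes 0 rose and 0 fell by limma, with 3 at an unadjusted p under 0.05 (median 0.43), and 4 were lower when centred. Autophagy genes had 1 rise and 2 falls of 21, and vacuolar protease genes 1 rise and 0 falls of 9. When centred 9 autophagy and 3 vacuolar protease genes were lower and 0 of either were higher. Genes of Ras and protein kinase A, 13 tested, had a median of -0.24, and 8 were lower when centred. Of the SIR genes, whose products form silent chromatin at telomeres and the silent mating loci, SIR2 stood at 0.0722, 0.128, 0.0690 and 0.184 at 5 min and at 0.323, 0.878, 0.253 and 0.656 at 30 min, a rise of 1.88 ± 0.48 (adjusted p = 0.00172) on the spike-in scale and 0.80 when centred, where it was not called. SIR1 changed by 1.02 ± 0.56 (adjusted p = 0.13), with an adjusted p of 0.0206 with the series as a block, SIR3 by 0.50 ± 0.60 (adjusted p = 0.49) and SIR4 by 0.75 ± 0.58 (adjusted p = 0.28), with overlapping levels.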

How the data were processed

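Poly(A) RNA of 8 strains at 7 times with 2 replicates was sequenced by the authors after S. pombe total RNA had been added at 1 part in 10 by mass, per the labels' protocols; all kits named keep strand information, but the labels do not tie a kit to a library. CASAVA 1.7.0 and the build ASM294v2 are named in the submitters' processing notes. Not given in the sources used here: aligner, S. cerevisiae build and strand setting of the counting. Per the file headers, the authors deposited the log2 of the median coverage of each coding sequence after spike-in scaling. 1 value per library that is no multiple of 0.5 reads (within 0.005), held by 458 to 727 genes in the 8 libraries, stands for coverage of 0 and was set to 0. Linear values had been planned for, and the log-scale test was used in their place.

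Values were taken out of log2, and log2(value + 0.03) was fitted with limma 3.58.1 (R 4.3.3) to all libraries of the series, with 56 groups, 56 residual degrees of freedom and equal weight for wt1 and wt2. The 5567 of 6319 genes above 0.15 in at least 4 libraries were tested, two-sided, with Benjamini-Hochberg adjustment. The pseudocount understates changes of low genes. Replicate 1 and replicate 2 differ in how the value for 0 was set and in depth, and both were also analysed alone. Same-numbered libraries of a strain deviated together at 5 and 30 min (correlations of 0.58 to 0.77), and libraries of different series correlated from -0.58 to 0.53. The replicate number was used as the pairing in the block. These correlations alone cannot show that a number marks 1 culture followed over time. Blocked values are given beside a result where they change its call.

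The members and gene lists were chosen with earlier results of these data known. The genes named are, among called genes whose groups do not overlap, the largest changes of all genes, among early and late genes and in each list, plus SIR1 to SIR4, HXT1 to HXT7, CLN1 to CLN3, MIG1 to MIG3 and GCN4. Fewer are named than the rule allows. YNK1, DUT1, SLD5, PSF1, CSI2's promoter and the NOP2 and NSR1 promoters were chosen after their values were seen. Promoters are the 300 bases before the start codon in R64, and 5694 genes matched its locus tags. The fit was also run on simulated data with independent normal noise in each library. Those data lacked the shared deviations within a series given above, and the outcome is not reported here. Tables and plots used Python 3.11.15, numpy 2.4.6, pandas 2.3.3 and matplotlib 3.10.9. Alternatives covered the scale, the pseudocount, the filter, the libraries fitted, the block and the left-out replicates.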

Additional observations from a re-analysis of the deposited data

Results flagged for a closer look

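1 of 154 groups of 4 levels tested stood out by its gap: SPS100 at 30 min, where wt2 replicate 1 had a level of 0.0149 and lay apart from the other 3 libraries, with a gap of 0.862 of the range on the log2 scale. Chance alone would give about 1 in 20 such groups. The level rests on as little as 1 read.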

How the results depend on the processing

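The counts differed between the scales, between replicate 1 and replicate 2 fitted alone, and between wt1 and wt2 fitted alone. Centred on the median gene, 1518 genes were called (696 higher, 822 lower) in place of 2385 (2175 and 210), and with the replicate block and centring 750 were higher and 877 lower. A fit of the 8 libraries alone called 717 (624 higher, 93 lower), replicate 1 alone 675 (604 and 71), replicate 2 alone 1275 (1144 and 131), wt1 alone 1418 (1288 and 130) and wt2 alone 229 (173 and 56). The replicate block alone called 3186. With 10 times the pseudocount 126 were lower. Leaving out a series in turn gave 1141 to 1819 called, 1035 to 1664 higher and 106 to 165 lower. The median change of all genes was 0.00170 when centred, also with the replicate block, 0.61 with 10 times the pseudocount and 1.27 in wt1 alone.

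From starvation to 5 min, 1089 genes were called when centred (444 lower) in place of 639, and leaving out a series gave 205 to 584 called, 174 to 571 higher and 13 to 41 lower. From starvation to 30 min 1225 were higher and 1349 lower when centred. In the 5 other strains 1599 were called when centred (721 higher, 878 lower). The early genes that fell again, 20 in number, became 86 when centred, 95 with the replicate block and centring, 42 with the block, 12 with 10 times the pseudocount, 13 in the 28 wild-type libraries, 4 in replicate 1 alone and 11 in replicate 2 alone, and 6 to 17 when a series was left out. The late rises became 312 when centred, 330 with the block and centring, 280 in replicate 1 alone and 317 in replicate 2 alone, and 399 to 707 with a series left out; the late falls became 218, 243, 13 and 47 in the same order, and 22 to 67 with a series left out. The cause was not tested.

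Of 76 named genes 66 were called, 42 of them under every setting run, and none of the 66 changed direction. Uncalled genes that changed sign when centred were CLN3 (-0.42), HXT4 (-0.94), MIG2 (-0.078), SIR1 (-0.063), SIR3 (-0.57), SIR4 (-0.33) and GCN4 (-0.041), with the same values under the block. HXT4 ranged from -0.23 to 0.52 with a series left out and was negative in replicate 1 alone (-0.31) and in wt2 alone (-0.36). In the shallower replicate 1 libraries, genes of a few reads at 5 min are measured in steps of single reads.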

Other observations

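Across the 28 wild-type libraries, 7 genes (ADD37, CIN2, GET2, RPL40B, SCW10, TUB3 and VTC4) had 1 read or less in all 14 libraries of replicate 1 and at least 10 in all 14 of replicate 2, and 0 genes the reverse. CLN3 was at or near 0 in the replicate 1 libraries at 5 and 30 min and at 1.61 or more in those of replicate 2.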
